A study of Arabidopsis thaliana with 24 samples.

Results

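The comparison described here set siz1-2 explants against wild-type (WT) explants of Arabidopsis thaliana on the fourth day of shoot induction. It used every library that the labels place at this stage, 3 siz1-2 and 3 WT libraries, which are 6 of the 24 libraries of the series. The siz1-2 group carried the siz1-2 allele, a T-DNA insertion in the gene SIZ1, in the Columbia (Col-0) ecotype, and the WT group was Col-0 without it. In both groups hypocotyls were cut from seedlings grown for 7 days in the dark, kept for 4 days under constant light on callus-inducing medium (CIM), in which the auxin was 2,4-D (0.5 µg/ml) and the cytokinin was kinetin (0.05 µg/ml). They were then moved for 4 days to shoot-inducing medium (SIM), with IAA (0.15 µg/ml) as auxin and 2-IPA (0.5 µg/ml) as cytokinin. The other 18 libraries hold the same genotypes, 3 libraries each, just after cutting (0 d), after CIM (CIM 4 d) and after 6 days on SIM (SIM 6 d). The sources used here do not say how many explants a library pooled or whether replicates came from separate cultures. The p-values therefore reflect the spread between these libraries alone, and part of that spread may be technical. The mutant was represented by 1 allele, with no second allele or complemented line among the libraries.

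SIZ1 is an E3 ligase that attaches the small protein SUMO to other proteins, many of them transcription factors and chromatin proteins, and loss-of-function plants are known for dwarf growth, raised salicylic acid, early flowering and altered responses to phosphate, cold and abscisic acid. In regeneration from hypocotyls, cells next to the vascular strands first form a callus that resembles a lateral root primordium, and cytokinin in SIM then turns parts of that callus into shoot meristems through WUSCHEL (WUS), the CUP-SHAPED COTYLEDON (CUC) genes and class III HD-ZIP factors. The fourth day on SIM falls while these shoot progenitors are being set up. Since whole explants were sequenced, fewer cells of a type and less RNA per cell cannot be told apart.

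Levels are given in rpm, the reads assigned per 1000000 reads of the library to 1 isoform of each gene, the one with the highest mean over all 24 libraries. This scale does not divide by transcript length, so it serves to compare libraries, not genes. The library totals were 11842808, 13386177 and 15591781 reads in siz1-2 and 12994210, 12383688 and 14905922 reads in WT. Differences are log2(rpm + 1) in siz1-2 minus that in WT, with a standard error (SE), and a gene was called where limma gave a Benjamini-Hochberg adjusted p below 0.05 over the 20361 genes tested. SIZ1 itself had 72.3, 80.0 and 69.8 rpm in siz1-2, against 102, 105 and 118 rpm in WT (−0.55, SE 0.12, adjusted p = 0.0163), and was not called without siz1-2 replicate 1 (0.0698), siz1-2 replicate 3 (0.0652) or WT replicate 3 (0.0648). The reads that isoform 1 of SIZ1 held beyond isoform 3 numbered 0, 0 and 0 in siz1-2, against 493, 375 and 360 in WT, which fits the labels of all 6 libraries. Of 18 genes of the SUMO pathway tested, the other one called was SCE1, which encodes the SUMO-conjugating enzyme and was higher (0.45).

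At this stage 223 genes were higher and 224 genes were lower in siz1-2, which is 2.2% of the genes tested (1.1% in each direction). Of these, 94 higher and 83 lower genes differed at least 2-fold. The siz1-2 and WT libraries overlapped in 1 of the called genes, IAA7. Over all genes tested, the siz1-2 libraries lay above all WT libraries for 14.3% and below all of them for 9.21%. These shares, and the 1.1% called in each direction, are the background for the counts in lists and families below. With each of the 6 libraries left out in turn, 70 of the higher and 60 of the lower genes were called in all 6 fits. Those genes are said below to have kept their call, and for the others the libraries whose removal ended the call are named with the adjusted p. The counts were 101 higher and 83 lower without WT replicate 1, 149 and 125 without WT replicate 2, 111 and 123 without siz1-2 replicate 1, and 108 and 83 without siz1-2 replicate 2. They were 559 and 441 when 4 libraries of other stages that stood apart were left out (WT replicate 1 at 0 d, WT replicate 2 and siz1-2 replicate 3 at CIM 4 d, and WT replicate 2 at SIM 6 d), which enter these tests through the shared estimate of the spread. Fitting only the 6 SIM 4 d libraries gave 167 higher and 153 lower genes. The even balance of the main test turned with the scaling of the libraries. It came to 189 higher and 246 lower under median-of-ratios and 191 and 246 under TMM scaling. The median difference over all genes tested was 0.04. The plot of difference against level shows called genes at low, middle and high levels.

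**Figure D1:**
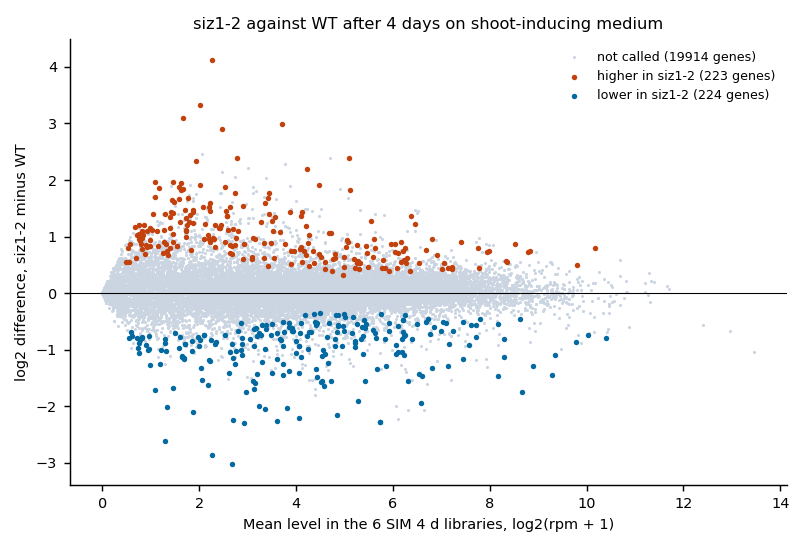
Difference between genotypes (vertical axis, log2(rpm + 1) in siz1-2 minus WT, mean of 3 libraries each) against mean level over the 6 SIM 4 d libraries (horizontal axis, log2(rpm + 1)), with 1 point per gene for the 20361 genes tested. The 223 higher genes (orange) and the 224 lower genes (blue) lie on both sides of 0 at low, middle and high levels, and light grey points were not called.

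The largest rise was that of QQS, a gene known to bear on starch content, which had 16.5, 17 and 24.9 rpm in siz1-2, against 0.154, 0.242 and 0.0671 rpm in WT (4.13, SE 0.19, adjusted p = 4.87e-11). AT4G08093 had 8.61, 7.92 and 8.59 rpm in siz1-2 and 0.077, 0 and 0.201 rpm in WT (3.1, SE 0.20, adjusted p = 7.56e-09). AT1G65150, annotated as TRAF-like, had 32.0, 41.1 and 35 rpm in siz1-2, against 3.62, 5.41 and 2.42 rpm in WT (2.98, SE 0.31, adjusted p = 2.13e-05). In these 3 genes every WT library was far below every siz1-2 library. The WT means of QQS and AT4G08093 were 0.0484 to 0.363 rpm over all stages. Both thus passed the filter of 1 rpm in 3 libraries only through siz1-2, the group in which they were high. Their calls are therefore not counted as support for a rise. AT2G05540, annotated as a glycine-rich protein, had 12.6, 23.2 and 10.6 rpm in siz1-2 and 1.23, 3.88 and 1.48 rpm in WT (2.38, SE 0.44, adjusted p = 0.0057).

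In the other direction, AT1G06620, annotated as an oxygenase that uses 2-oxoglutarate, had 1.6, 0.822 and 1.35 rpm in siz1-2, against 17.5, 15.7 and 18.3 rpm in WT (−3.02, SE 0.17, adjusted p = 7.59e-10). The F-box gene AT5G42460 had no read in any siz1-2 library and 5.85, 4.2 and 5.37 rpm in WT, at least 70.3-fold lower when 3 reads are set over the siz1-2 group (adjusted p = 3.59e-09). Its siz1-2 means were 0 to 0.0598 rpm over all stages, so it passed the filter on low values only through WT. Its call is likewise not counted as support for a fall. AT5G19110, annotated as an aspartyl protease, had 4.9, 4.63 and 8.98 rpm in siz1-2, against 32.6, 17.9 and 34.3 rpm in WT (−2.03, SE 0.32, adjusted p = 0.00155). All 7 of these genes kept their call. They were picked among called genes whose groups do not overlap, so the lack of overlap follows from the choice. Of the bHLH transcription factor genes, AT4G28790 was lower, with 4.73, 7.55 and 1.67 rpm in siz1-2 and 13.3, 28.9 and 20.6 rpm in WT (−2.05, SE 0.35, adjusted p = 0.00223), and AT2G31220 was higher, with 4.31, 5.23 and 3.85 rpm in siz1-2 and 0.308, 0.565 and 0.335 rpm in WT (1.96, SE 0.24, adjusted p = 9.87e-05). Both kept their call.

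Several genes that plants turn on when sulfur runs short were lower in siz1-2. Of the 24 members of a list of sulfate uptake and sulfur limitation genes, 22 were tested, 7 fell and 1 rose, with a median difference of −0.41 against 0.04 over all genes. Over all genes tested, 1.1% fell and 1.1% rose. All 3 siz1-2 libraries lay below all 3 WT libraries for 16 of the 22 members, against 9.21% of all genes tested. Like the other lists below, this one was chosen with earlier results of these data known. Its counts and shares therefore describe the list and are no independent support for a fall. The summed level of the list was 1590 to 1640 rpm in siz1-2 and 2080 to 2160 rpm in WT. Among the genes that move sulfate or start its reduction, APR1, APR2, APR3, APS1 and SULTR4;1 were not called.

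The fall was seen in SULFUR DEFICIENCY-INDUCED 1 (SDI1), a repressor of glucosinolate synthesis that is made under sulfur limitation, in LSU1, LSU2 and LSU3 (RESPONSE TO LOW SULFUR genes), in SULTR4;2, which exports sulfate from the vacuole, in BGLU28, a beta-glucosidase linked to the breakdown of glucosinolates, and in SHM7, a serine hydroxymethyltransferase. SDI1 and BGLU28 fell most among them, and LSU1 and LSU3 are neighbours on chromosome 3, so the 250 bases before the annotated start of these 4 genes are shown to let their promoters be compared (RefSeq TAIR10.1, each written 5′ to 3′ on the strand of the gene). Capitals mark GAGAC or its reverse complement GTCTC, the core of the sulfur-responsive element known from the promoter of a root sulfate transporter.
SDI1, chr5:19807854-19808103, minus strand: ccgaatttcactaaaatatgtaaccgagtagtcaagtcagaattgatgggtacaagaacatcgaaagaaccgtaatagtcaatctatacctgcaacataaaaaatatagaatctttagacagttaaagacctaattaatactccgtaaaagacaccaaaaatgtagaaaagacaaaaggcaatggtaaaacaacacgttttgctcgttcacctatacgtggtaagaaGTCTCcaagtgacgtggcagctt
BGLU28, chr2:18346056-18346305, plus strand: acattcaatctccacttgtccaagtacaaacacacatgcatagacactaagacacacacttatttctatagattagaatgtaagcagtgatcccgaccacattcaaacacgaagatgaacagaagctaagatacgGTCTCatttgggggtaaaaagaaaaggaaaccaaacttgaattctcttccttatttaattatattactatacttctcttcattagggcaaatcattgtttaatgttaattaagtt
LSU3, chr3:18373148-18373397, minus strand: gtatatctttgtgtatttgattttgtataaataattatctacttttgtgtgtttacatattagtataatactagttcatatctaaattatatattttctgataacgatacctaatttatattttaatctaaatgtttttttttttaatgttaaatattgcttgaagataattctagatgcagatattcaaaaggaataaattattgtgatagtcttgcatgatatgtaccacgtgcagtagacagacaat
LSU1, chr3:18375941-18376190, minus strand: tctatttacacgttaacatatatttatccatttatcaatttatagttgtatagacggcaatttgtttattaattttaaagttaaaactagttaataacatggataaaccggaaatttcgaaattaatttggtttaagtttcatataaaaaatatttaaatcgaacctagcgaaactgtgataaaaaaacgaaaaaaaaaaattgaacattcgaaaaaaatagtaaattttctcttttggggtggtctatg
The match starts at position −23 in SDI1 and at −115 in BGLU28, counted back from the annotated start, and the LSU1 and LSU3 windows hold none. Read on both strands, GAGAC was in 6 of the 22 windows of the sulfur list (27.3%), in 21.6% of those of the genes called lower and in 25.4% of the windows of all genes tested. Counted as 1 of 7 motifs searched in 6 sets of genes after the values had been seen, it is a description of these letters only. Its longer form GAGACA, which is included in the count of GAGAC, was in 9.09% of the sulfur list and 10.6% of all windows. CACGTG, the G-box, was in 4.55% of the windows of the sulfur list, none of the 9 of the jacalin-related lectin cluster described below, 12.6% of the windows of the genes called lower, 8.07% of those called higher and 7.18% of all windows, and ACGTG, the core that every G-box contains, in 32.9% of the genes called lower, 22.4% of those called higher and 23.5% of all windows. Of 3 forms of the UPE box, an element known from sulfur limitation genes, each was in at most 1 of the 22 sulfur windows when 500 bases were read. The 1 match was of form 3 (4.55%, against 0.248% of all windows). Forms 1 and 2 were in none of the sulfur windows and in 0.0199% and 0.318% of all windows.

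SDI1 (chromosome 5, 19805437 to 19807853, in TAIR10.1 as for all positions given) had 1.1, 0.523 and 0.705 rpm in siz1-2, against 6.31, 6.78 and 6.44 rpm in WT. The WT libraries were nearly equal and every siz1-2 library was far below them, with a log2 difference of −2.09 (SE 0.31, adjusted p = 0.000692). SULTR4;2 (chromosome 3, 3967816 to 3972135) had 27.4, 27.4 and 26.1 rpm in siz1-2 and 54.4, 46.8 and 46.7 rpm in WT (−0.84, SE 0.11, adjusted p = 0.000288). LSU3 had 4.73, 8.14 and 6.29 rpm in siz1-2, against 13.8, 15.3 and 11.5 rpm in WT (−0.99, SE 0.17, adjusted p = 0.00326). These 3 genes kept their call.

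LSU1, LSU2, BGLU28 and SHM7 were also lower in all 3 siz1-2 libraries than in any WT library, but lost their call more easily. LSU1 had 4.14, 4.93 and 4.75 rpm in siz1-2 and 13.5, 18.6 and 11.1 rpm in WT (−1.43, SE 0.33, adjusted p = 0.0251). LSU2 had 51.6, 53.1 and 58.7 rpm in siz1-2, against 101, 97.6 and 89.1 rpm in WT (−0.81, SE 0.20, adjusted p = 0.0323). BGLU28 had 43.5, 72.3 and 35.1 rpm in siz1-2 and 175, 194 and 190 rpm in WT (−1.93, SE 0.47, adjusted p = 0.0379). SHM7 had 57.8, 52.2 and 56.1 rpm in siz1-2, against 79.8, 81.9 and 87.7 rpm in WT (−0.58, SE 0.15, adjusted p = 0.0496). With any 1 of the 6 libraries left out, the adjusted p lay at 0.0533 to 0.138 for LSU2, 0.0529 to 0.13 for BGLU28 and 0.101 to 0.195 for SHM7. LSU1 stayed called without WT replicate 3, but not when any of the other 5 libraries was left out (0.0604 to 0.117).

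SULTR2;1, a low-affinity sulfate transporter of the vascular tissue, was the 1 member that rose. It had 109, 104 and 198 rpm in siz1-2, against 69.3, 37.2 and 49.4 rpm in WT (1.36, SE 0.33, adjusted p = 0.0329). It stayed called without WT replicate 1, but not when any of the other 5 libraries was left out (0.0581 to 0.146). AST91, another member of the sulfate transporter family and not on the list, was also higher, with 6.33, 4.63 and 3.85 rpm in siz1-2 and 0.154, 0.646 and 1.34 rpm in WT (1.83, SE 0.33, adjusted p = 0.00372), and it kept its call. It was picked out after its values had been seen. SLIM1, the transcription factor that drives the sulfur limitation response, had 31.5, 31.9 and 31.1 rpm in siz1-2, against 24.2, 27.6 and 29.6 rpm in WT, and was not called (0.21, SE 0.16, adjusted p = 0.604). The plot of the sulfur genes shows these values library by library.

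**Figure D2:**
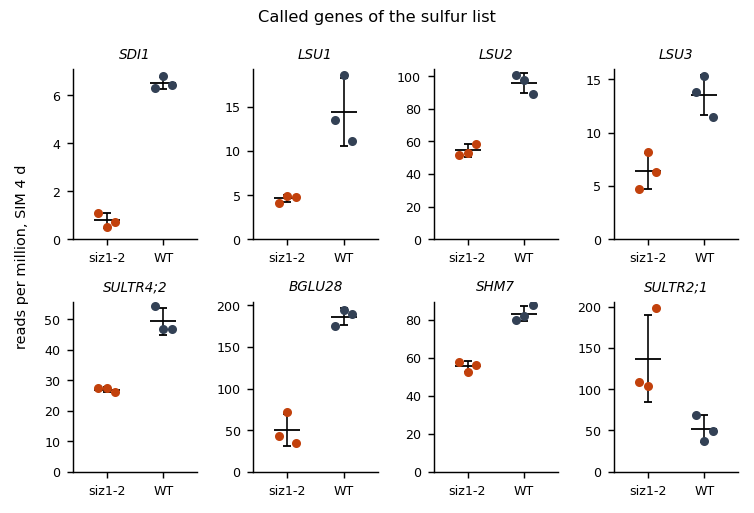
Level in rpm (vertical axis, from 0) of the 8 called members of the sulfur list in the 3 siz1-2 (orange, left) and 3 WT (dark grey, right) libraries at SIM 4 d, with the mean (long dash) and SD (bars). 7 genes lie lower in all 3 siz1-2 libraries and SULTR2;1 lies higher.

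Several genes for abundant defence proteins of the Brassicaceae were also lower. The endoplasmic reticulum (ER) body is an organelle filled with beta-glucosidases such as PYK10, which split glucosinolates when tissue is broken. Jacalin-related lectins such as PBP1 bind the released PYK10 in large aggregates, and nitrile specifier proteins (NSP) steer the products towards nitriles. Of 9 genes in a cluster of NSP and jacalin-related lectin genes on chromosome 3, all of which were tested, 6 fell and none rose, with a median difference of −0.86. Over all genes tested, 1.1% fell. All 3 siz1-2 libraries lay below all 3 WT libraries for 8 of the 9, against 9.21% of all genes tested. The summed level of the cluster was 2620 to 3900 rpm in siz1-2 and 5810 to 6890 rpm in WT. This list was drawn up after the values had been seen.

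NSP1 (chromosome 3, 5566083 to 5568545) had 464, 254 and 446 rpm in siz1-2, against 1080, 881 and 1120 rpm in WT (−1.45, SE 0.24, adjusted p = 0.00203). Its neighbour NSP4 had 225, 107 and 209 rpm in siz1-2 and 498, 408 and 540 rpm in WT (−1.47, SE 0.26, adjusted p = 0.00385). The lectin gene JAL33 had 499, 348 and 516 rpm in siz1-2, against 1010, 906 and 956 rpm in WT (−1.09, SE 0.17, adjusted p = 0.00132). PBP1 had 1210, 869 and 1020 rpm in siz1-2 and 1760, 1710 and 1850 rpm in WT (−0.79, SE 0.14, adjusted p = 0.00391). All 4 kept their call, and in each of them siz1-2 replicate 2 was the lowest library. JAL31 lost its call without siz1-2 replicate 2 (adjusted p = 0.0777), and JAL34 lost it without that library (0.117) or without WT replicate 3 (0.0758). PBP1 and JAL31 are related genes lying next to each other, and the sources used here do not state how reads shared by such copies were assigned. With 1 isoform per gene, the reads came to 103.4 to 103.5% of the library total at SIM 4 d. Some reads were therefore counted for more than 1 gene, and calls of such copies may rest on the same reads. Outside the cluster, NSP5 had 142, 119 and 154 rpm in siz1-2, against 285, 245 and 249 rpm in WT (−0.91, SE 0.13, adjusted p = 0.000665), and kept its call. NSP5 was chosen after its values had been seen.

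In the ER body itself, NAI2, which builds the organelle, had 943, 664 and 856 rpm in siz1-2 and 1210, 1210 and 1710 rpm in WT (−0.74, SE 0.17, adjusted p = 0.0208). Its call was lost without siz1-2 replicate 2 (adjusted p = 0.141) or WT replicate 3 (0.088). The transcription factor NAI1, which switches these genes on, was called lower (−0.75, adjusted p = 0.0381). It stayed called without siz1-2 replicate 1, but not when any of the other 5 libraries was left out (0.0529 to 0.244). MEB1, a membrane protein of the ER body chosen after its values had been seen, had 57.9, 41.8 and 53.0 rpm in siz1-2, against 97.4, 101 and 130 rpm in WT (−1.09, SE 0.16, adjusted p = 0.000751), and kept its call. PYK10, the main beta-glucosidase of the ER body, had 7390, 4750 and 7060 rpm in siz1-2 and 9610, 8550 and 12200 rpm in WT. The 2 groups did not overlap for PYK10, but the difference missed the threshold (−0.67, SE 0.19, adjusted p = 0.0735).

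Some beta-glucosidases related to PYK10 were called lower as well. BGLU24 had 1.27, 0.747 and 0.449 rpm in siz1-2, against 6.77, 12.3 and 20.3 rpm in WT, and kept its call (−2.86, SE 0.36, adjusted p = 0.00014). BGLU22 and PEN2, which acts in the indole glucosinolate pathway against fungi, were called lower, but neither call held with any 1 of the 6 libraries left out (adjusted p 0.0512 to 0.14 for BGLU22 and 0.0806 to 0.173 for PEN2). In the opposite direction, BGLU45, assigned to monolignol glucosides, had 13.3, 17.6 and 19.8 rpm in siz1-2 and 6.46, 6.78 and 5.64 rpm in WT (1.28, SE 0.22, adjusted p = 0.00258), and kept its call. Over the whole family of beta-glucosidases 33 were tested, 1 rose and 5 fell, against 1.1% each way over all genes tested. The median difference of the family was −0.04, with 14 differences above 0 and 19 below. All 3 siz1-2 libraries lay above all 3 WT libraries for 8 members and below them for 9. Those that fell were BGLU22, BGLU24, BGLU28, PEN2 and BGLU43, and BGLU43 lost its call whichever library was left out (adjusted p 0.0637 to 0.253).

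Because PYK10 and its partners are known from roots and the epidermis, marker lists of these tissues were read beside them. The 12 epidermis and cuticle markers summed to 116 to 246 rpm in siz1-2 and 66.3 to 148 rpm in WT, and 1 of the 11 tested was called higher. This was CER1, an enzyme of wax alkane synthesis (1.37, adjusted p = 0.0142), which lost its call without siz1-2 replicate 1 (0.066), siz1-2 replicate 2 (0.0958) or WT replicate 3 (0.062). The 13 root hair markers summed to 42.1 to 117 rpm in siz1-2 and 34.7 to 72.4 rpm in WT, with none of 11 tested called. The 22 endodermis and suberin markers summed to 322 to 479 rpm in siz1-2 and 239 to 443 rpm in WT, with none of 21 called. The siz1-2 and WT ranges of all 3 sums overlap, with the higher end in siz1-2, and their part in the result was not tested.

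**Figure D3:**
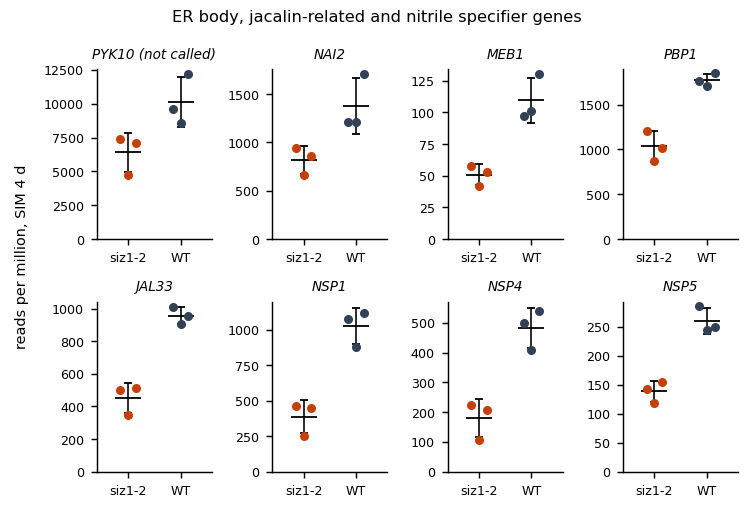
Level in rpm (vertical axis, from 0) of 8 genes of ER bodies, jacalin-related lectins and nitrile specifier proteins in the 3 siz1-2 (orange, left) and 3 WT (dark grey, right) libraries at SIM 4 d, with the mean (long dash) and SD (bars). The siz1-2 libraries lie below the WT libraries in each panel, also in that of PYK10, which was not called.

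The synthesis of glucosinolates from methionine, which supplies substrates for these enzymes, held 1 called gene, and it was higher. CYP79F2, which makes aldoximes from chain-elongated methionine, had 13.8, 9.71 and 3.08 rpm in siz1-2, against 0.923, 1.05 and 0.268 rpm in WT (2.34, SE 0.50, adjusted p = 0.0162). The call was lost without WT replicate 1 (0.0558), WT replicate 3 (0.0615), siz1-2 replicate 1 (0.101) or siz1-2 replicate 2 (0.089). MAM1, the first enzyme of chain elongation, had 51.5, 49.3 and 9.43 rpm in siz1-2 and 7.39, 7.59 and 2.35 rpm in WT, and was not called (2.28, SE 0.74, adjusted p = 0.139), though it was without siz1-2 replicate 3 (0.045). BCAT4 (2.38, adjusted p = 0.114) and the regulator MYB28 (1.88, adjusted p = 0.204) had differences of similar size and were not called either. In each of these 4 genes replicate 3 was the lowest library of both genotypes. The indole branch gave differences near 0, with −0.17 for CYP79B2, −0.15 for CYP79B3 and −0.08 for CYP83B1, none of them called. Of the 26 tested members of the list of glucosinolate and ER body genes 1 rose and 5 fell, against 1.1% each way over all genes tested.

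Some triterpene and monoterpene genes were lower as well. The thalianol cluster on chromosome 5 encodes the synthesis of a root triterpene, and 2 of its 5 genes fell in a list drawn up after the values had been seen. CYP705A5 had 79.6, 47.3 and 90.9 rpm in siz1-2, against 160, 150 and 228 rpm in WT (−1.32, SE 0.28, adjusted p = 0.0142), and lost its call without WT replicate 3 (0.0632) or siz1-2 replicate 2 (0.104). Its neighbour CYP708A2 (−1.17, adjusted p = 0.0284) stayed called without siz1-2 replicate 3 alone (0.0509 to 0.163 without 1 of the others), and the thalianol synthase THAS1 just missed the threshold (−0.93, adjusted p = 0.0525). Of 5 terpene synthases tested the 2 called lower were near-identical neighbouring copies of the cineole synthase TPS-CIN, whose reads cannot be told apart. Both copies (−2.28 each) stayed called without siz1-2 replicate 1. Neither did when any of the other 5 libraries was left out (0.053 to 0.219 for AT3G25830 and 0.0536 to 0.221 for AT3G25820).

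Among regulators of shoot and organ formation, few members of each list were called. LIGHT-DEPENDENT SHORT HYPOCOTYLS (LSH) genes encode nuclear proteins, several of them made at organ boundaries. LSH1 (chromosome 5, 10454388 to 10455681) had 9.79, 10.6 and 7.76 rpm in siz1-2, against 30.1, 26.2 and 22.9 rpm in WT (−1.40, SE 0.20, adjusted p = 0.000386). LSH2, which belongs to the same family, had 8.02, 14 and 14.2 rpm in siz1-2 and 0.231, 0.404 and 0.201 rpm in WT (3.32, SE 0.26, adjusted p = 1.71e-07). Both kept their call, and they moved in opposite directions. The other family members tested, LSH3 to LSH7, LSH9 and LSH10, were not called. Of these LSH4 had the next largest difference (1.26, SE 0.44, adjusted p = 0.173).

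Of 20 boundary genes tested 1 rose and 2 fell, against 1.1% each way over all genes tested. The third was RAX1, a MYB factor of axillary meristems, which was called lower (−0.71, adjusted p = 0.0474). It stayed called without siz1-2 replicate 1, but not when any of the other 5 libraries was left out (0.077 to 0.249). None of 21 shoot stem cell genes was called, with a median difference of 0.17. Some varied widely between replicates of 1 genotype. SHOOT MERISTEMLESS (STM), a homeobox gene that keeps meristem cells undifferentiated, had 1.27, 4.63 and 0.77 rpm in siz1-2 and 0, 2.1 and 0.201 rpm in WT. CUC1 had 8.70, 17.6 and 5.45 rpm in siz1-2, against 2.00, 15.3 and 3.42 rpm in WT. CUC3 had 1.44, 3.29 and 0.641 rpm in siz1-2 and 0.231, 1.37 and 0.134 rpm in WT. Replicate 2 was the highest library of both genotypes in all 3 genes. Without WT replicate 2, WUS (adjusted p = 0.0342) and CLV3 (0.0259), which encodes the signal peptide that limits WUS, were called higher. With it their adjusted p was 0.213 and 0.518.

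Against 1.1% each way over all genes tested, 2 of 25 leaf polarity and growth genes tested rose and none fell. Their median difference was 0.42, and all 3 siz1-2 libraries lay above all 3 WT libraries for 8, against 14.3% of all genes tested. The list summed to 2340 to 2820 rpm in siz1-2 and 1680 to 2060 rpm in WT. CNA (CORONA), a class III HD-ZIP factor of meristems and vascular tissue, had 542, 635 and 533 rpm in siz1-2, against 289, 368 and 383 rpm in WT (0.72, SE 0.15, adjusted p = 0.0107), and lost its call without WT replicate 1 (0.0855) or siz1-2 replicate 2 (0.0773). ARF4, an auxin response factor of the lower leaf side, had 87.0, 107 and 80.6 rpm in siz1-2 and 52.3, 65.6 and 63.3 rpm in WT (0.59, SE 0.12, adjusted p = 0.0128). It lost its call without the same 2 libraries (0.0972 and 0.101). The related HD-ZIP genes PHB (0.52, adjusted p = 0.116), PHV (0.42, 0.155) and REV (0.42, 0.13) had siz1-2 libraries above all WT libraries and were not called. YAB5 and the isoforms used for FIL and GRF5, all genes of young leaf tissue, had no read in any of the 6 libraries. The root meristem and callus genes, of which none of 21 was called, summed to 749 to 941 rpm in siz1-2 and 577 to 743 rpm in WT. Their differences were above 0 for 10 members and below 0 for 11. All 3 siz1-2 libraries lay above all 3 WT libraries for 1 member and below them for 3. The sums thus do not stand for a rise shared by the list.

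AMP1, a peptidase-like ER protein whose loss in mutants enlarges shoot meristems, had 19.2, 15.5 and 13.0 rpm in siz1-2, against 32.6, 33.3 and 36.8 rpm in WT (−1.07, SE 0.17, adjusted p = 0.00121). ESC, an AT-hook protein known to repress hypocotyl elongation, had 13.0, 10.5 and 14.3 rpm in siz1-2 and 32.9, 20.6 and 24.8 rpm in WT (−0.98, SE 0.15, adjusted p = 0.00126). CESA9, a cellulose synthase subunit, had 9.20, 10.2 and 11.0 rpm in siz1-2, against 1.85, 1.86 and 2.42 rpm in WT (1.87, SE 0.13, adjusted p = 1.49e-08). All 3 kept their call and were chosen after their values had been seen.

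Genes that act on DNA methylation and histones were among the higher ones. ROS1 (chromosome 2, 15307907 to 15314807), a glycosylase that removes methylated cytosine, had 73.7, 77.5 and 65.0 rpm in siz1-2 and 20.5, 32.9 and 36.0 rpm in WT (1.28, SE 0.21, adjusted p = 0.00208). The histone deacetylase gene HDA18 had 4.22, 5.38 and 4.36 rpm in siz1-2, against 0.847, 1.37 and 1.27 rpm in WT (1.39, SE 0.18, adjusted p = 0.00021). Both kept their call, and they were the only 2 called of the 21 chromatin regulators tested. The methyltransferases MET1, CMT2, CMT3 and DRM2, the demethylase DME and the remodeller DDM1 had differences between −0.01 and 0.24 and were not called. Outside the list, and chosen after their values had been seen, the remodelling ATPase gene CHR34 had 4.73, 3.51 and 4.87 rpm in siz1-2 and 0.616, 0.565 and 0.872 rpm in WT (1.67, SE 0.18, adjusted p = 2.16e-05). DRM1, a rarely expressed relative of DRM2, had 1.44, 1.49 and 1.28 rpm in siz1-2, against 0.077, 0 and 0.134 rpm in WT (1.17, SE 0.15, adjusted p = 0.000171). Both kept their call.

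**Figure D4:**
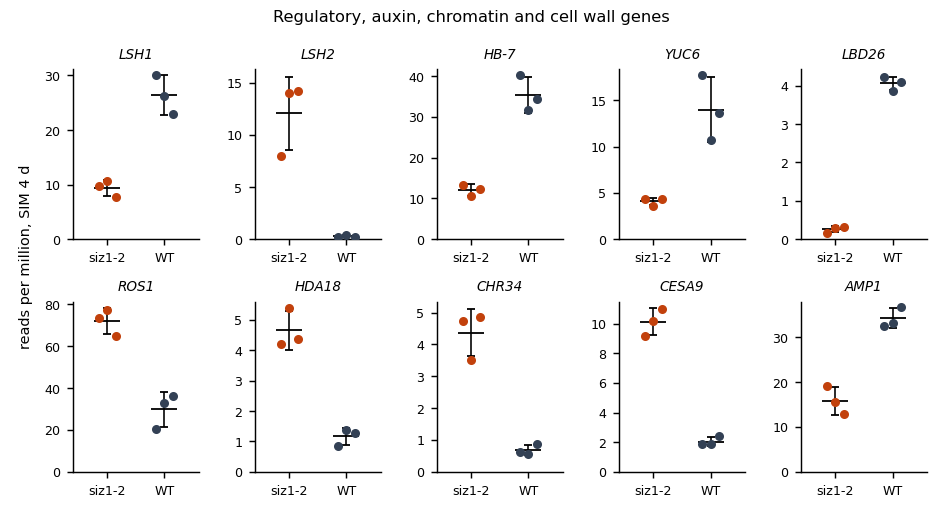
Level in rpm (vertical axis, from 0) of 10 regulatory, auxin, chromatin and cell wall genes in the 3 siz1-2 (orange, left) and 3 WT (dark grey, right) libraries at SIM 4 d, with the mean (long dash) and SD (bars). LSH2, ROS1, HDA18, CHR34 and CESA9 lie higher in siz1-2, and LSH1, HB-7, YUC6, LBD26 and AMP1 lie lower, with no overlap in any panel.

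Auxin genes changed one by one. YUC6, a flavin monooxygenase that makes auxin, had 4.31, 3.59 and 4.3 rpm in siz1-2 and 17.7, 10.7 and 13.6 rpm in WT (−1.54, SE 0.27, adjusted p = 0.00326). It kept its call and was the only one of 21 auxin transport and synthesis genes tested to be called. AIR12, an auxin-induced membrane protein chosen after its values had been seen, had 56.0, 43.0 and 51.4 rpm in siz1-2, against 117, 102 and 91.7 rpm in WT (−1.03, SE 0.11, adjusted p = 3.29e-05), and kept its call. LBD26, of the LOB domain family, had 0.169, 0.299 and 0.321 rpm in siz1-2 and 4.23, 3.88 and 4.09 rpm in WT (−2.01, SE 0.23, adjusted p = 4.42e-05), kept its call and was the only one called of 23 in its family. GH3.9, of the family that couples auxin to amino acids, was called higher (1.77, adjusted p = 0.0143) but not without WT replicate 1 (0.0932), WT replicate 3 (0.0656), siz1-2 replicate 1 (0.0879) or siz1-2 replicate 2 (0.0777). Of 28 Aux/IAA repressors 1 was called higher and 1 lower. IAA7 was lower (−1.14, adjusted p = 0.0315), and not without WT replicate 1 (0.213), WT replicate 2 (0.0892), siz1-2 replicate 1 (0.175) or siz1-2 replicate 2 (0.0964). IAA31 was called higher (0.87, adjusted p = 0.00395) at 1.86, 1.27 and 1.03 rpm in siz1-2, against 0.077, 0.485 and 0.335 rpm in WT. Without any 1 siz1-2 library it no longer passed the filter on low values. It was thus tested only through the group in which it was high, so its call is not counted as support for a rise.

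No type-A response regulator, cytokinin signalling or cytokinin metabolism gene was called among 9, 19 and 20 tested, with median differences of −0.13, 0.02 and 0.15. Brassinosteroid synthesis, in a list of 14 drawn up after the values had been seen, had 2 genes that rose, against 1.1% of all genes tested. The median difference of the list was −0.11 and 4 of its 14 differences were above 0. DWF4, whose product catalyses a rate-limiting step, had 30.1, 35.8 and 38.1 rpm in siz1-2 and 18.7, 25.8 and 19.3 rpm in WT (0.69, SE 0.13, adjusted p = 0.00439), and kept its call. CPD had 44.1, 44.0 and 53.7 rpm in siz1-2, against 33.2, 32.6 and 31.1 rpm in WT (0.53, SE 0.12, adjusted p = 0.0235), and stayed called without siz1-2 replicate 1 alone (0.0527 to 0.109 without 1 of the others). HB-7, a homeobox gene induced by abscisic acid and drought, had 13.2, 10.5 and 12.4 rpm in siz1-2 and 40.3, 31.6 and 34.3 rpm in WT (−1.48, SE 0.19, adjusted p = 0.000158). It kept its call and was the only one of 25 cold, drought and abscisic acid genes to be called, though the list summed to 570 to 757 rpm in siz1-2 and 987 to 1080 rpm in WT. KIN1, KIN2 and ERD10, which belong to that list, had differences of −1.35, −1.30 and −0.71 and adjusted p of 0.242, 0.239 and 0.289.

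Of 30 salicylic acid and defence genes 1 fell and none rose. ICS2, the lesser of the isochorismate synthases, had 11.0, 3.66 and 8.72 rpm in siz1-2, against 16.2, 15.4 and 20.4 rpm in WT (−1.16, SE 0.27, adjusted p = 0.0249). It was not called without any 1 WT library (0.08, 0.0534 and 0.0817) or without siz1-2 replicate 2 (0.15). Of 27 jasmonate genes the transcription factor MYC4 alone was called (0.46, adjusted p = 0.0107), and not without WT replicate 1 (0.0538) or siz1-2 replicate 2 (0.0617). Of 60 WRKY factors 2 fell and none rose, against 1.1% each way over all genes tested. They were WRKY69, which kept its call at 12.0, 8.82 and 11.2 rpm in siz1-2 and 28.9, 22.9 and 22.0 rpm in WT (−1.14, SE 0.19, adjusted p = 0.00175), and WRKY6 (−0.81, adjusted p = 0.0241). WRKY6 stayed called without siz1-2 replicate 3 alone (0.062 to 0.118 without 1 of the others).

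Flowering regulators differed at low levels, 2 higher and 1 lower of 18 tested, against 1.1% each way over all genes tested. The floral repressor FLC had 3.88, 2.32 and 3.98 rpm in siz1-2, against 11.8, 6.46 and 10.3 rpm in WT (−1.25, SE 0.27, adjusted p = 0.0165), and was not called without WT replicate 1 (0.114), WT replicate 3 (0.0575) or siz1-2 replicate 2 (0.115). CO, which promotes flowering in long days, had 8.11, 12.5 and 5.96 rpm in siz1-2 and 1.92, 3.96 and 2.48 rpm in WT (1.36, SE 0.30, adjusted p = 0.0163). CO lost its call without WT replicate 1 (0.111), WT replicate 3 (0.0516), siz1-2 replicate 1 (0.055) or siz1-2 replicate 2 (0.122). TFL1, which keeps shoot tips from turning into flowers, was higher (1.1, adjusted p = 0.0208), but not without WT replicate 1 (0.141), WT replicate 3 (0.06) or siz1-2 replicate 2 (0.14). The clock gene PRR7 fell (−0.69, adjusted p = 0.0387) and lost its call whichever library was left out (0.059 to 0.162).

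In nitrogen and phenylpropanoid metabolism, GDH2, a glutamate dehydrogenase, had 490, 545 and 454 rpm in siz1-2 and 240, 305 and 267 rpm in WT (0.88, SE 0.15, adjusted p = 0.00208). The amino acid permease AAP4 had 112, 97.4 and 78.8 rpm in siz1-2, against 54.9, 59.2 and 55.1 rpm in WT (0.74, SE 0.13, adjusted p = 0.00391), and AAP5, chosen after its values had been seen, had 61.6, 60.4 and 50.6 rpm in siz1-2 and 25.9, 35.8 and 34.1 rpm in WT (0.84, SE 0.14, adjusted p = 0.00166). TT7, the flavonoid 3′-hydroxylase, had 26.4, 14.9 and 11.9 rpm in siz1-2, against 3.08, 7.43 and 4.90 rpm in WT (1.6, SE 0.27, adjusted p = 0.00208). All 4 kept their call. TT7 was the only one called of 16 flavonoid genes tested. Chalcone synthase, TT4, had 787, 534 and 553 rpm in siz1-2 and 555, 619 and 682 rpm in WT. None of 6 nitrate assimilation genes was called, although all 6 differences were above 0 and their median was 0.68.

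The cell wall and redox enzymes at the ends of the ranking included COBL5, a member of a family that orients cellulose, at 7.26, 4.11 and 9.94 rpm in siz1-2, against 43.9, 25.8 and 37.3 rpm in WT (−2.21, SE 0.30, adjusted p = 0.000292). MSRB5, a methionine sulfoxide reductase, had 16.9, 13.0 and 9.17 rpm in siz1-2 and 57.5, 63.6 and 58.1 rpm in WT (−2.15, SE 0.24, adjusted p = 3.36e-05). MES5, of the methylesterase family, had 1.77, 1.34 and 3.08 rpm in siz1-2, against 17.7, 11.5 and 11.1 rpm in WT (−2.25, SE 0.21, adjusted p = 3.1e-06). EP3, a chitinase, had 5.91, 4.86 and 4.49 rpm in siz1-2 and 1.00, 0.888 and 0.805 rpm in WT (1.68, SE 0.25, adjusted p = 0.000751). These 4 kept their call. Of 25 xyloglucan endotransglucosylase genes, which remodel the cell wall, 3 rose and none fell, against 1.1% each way over all genes tested. XTH11 (1.24, adjusted p = 0.0116) was not called without WT replicate 1 (0.076) or siz1-2 replicate 3 (0.0604). EXGT-A3 (0.53, adjusted p = 0.0253) was not called without WT replicate 2 (0.122), WT replicate 3 (0.077), siz1-2 replicate 1 (0.0949) or siz1-2 replicate 3 (0.101). XTH15 (2.91, adjusted p = 0.0387) was not called whichever library was left out (0.0751 to 0.133). ABCC10, an ABC transporter, had 90.0, 114 and 44.3 rpm in siz1-2, against 8.31, 21.5 and 14.9 rpm in WT (2.39, adjusted p = 0.0177), and lost its call without siz1-2 replicate 1 (0.0784), siz1-2 replicate 2 (0.108) or WT replicate 1 (0.117).

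Among the called genes of highest rpm, RAN2, a small GTPase of nuclear transport, had 379, 382 and 426 rpm in siz1-2 and 295, 275 and 238 rpm in WT (0.56, SE 0.09, adjusted p = 0.00203), and the TRAF-like gene AT5G26260 had 286, 119 and 311 rpm in siz1-2, against 830, 580 and 839 rpm in WT (−1.75, SE 0.31, adjusted p = 0.00376). Both kept their call. HA1, a plasma membrane proton pump, had 1090, 1160 and 956 rpm in siz1-2 and 664, 765 and 842 rpm in WT (0.50, SE 0.10, adjusted p = 0.0131) and lost its call without siz1-2 replicate 1 (0.0605), siz1-2 replicate 2 (0.093) or WT replicate 1 (0.0994). The metallothionein gene MT2B and the adjacent AT5G02370 were both called higher, but AT5G02370 held 0.377 to 0.394 times the level of MT2B in siz1-2 and 0.396 to 0.402 times in WT, so the levels of these genes cannot be told apart. MT2B (0.80, adjusted p = 0.0315) lost its call without WT replicate 2 (0.0559), WT replicate 3 (0.117), siz1-2 replicate 1 (0.124) or siz1-2 replicate 2 (0.18).

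Cell division and photosynthesis showed no called gene. Of 57 cell cycle and replication genes none was called, with a median of 0.10, and the summed level was 2100 to 2540 rpm in siz1-2 and 1900 to 2130 rpm in WT. The nearest to the threshold was MCM6, a subunit of the replication helicase, with 46.7, 48.0 and 44.6 rpm in siz1-2, against 25.3, 32.8 and 38.4 rpm in WT (0.54, SE 0.14, adjusted p = 0.0586), which was called without WT replicate 3 (0.0242). Of 48 light harvesting and photosynthesis genes none was called, with a sum of 3430 to 3880 rpm in siz1-2 and 1940 to 3730 rpm in WT. The 32 chlorophyll and greening genes tested, none called, had siz1-2 libraries above all WT libraries for 10, against 14.3% of all genes tested. Xylem markers (12 tested), phloem markers (11), stomatal lineage markers (3 of 10) and embryo and seed markers (4 of 16) held no called gene. Their sums were 661 to 765, 892 to 966, 3.12 to 4.33 and 33.4 to 36.7 rpm in siz1-2, against 649 to 820, 844 to 930, 2.01 to 3.54 and 43.5 to 50.4 rpm in WT. Over all 36 lists 672 of 781 genes were tested, 13 rose and 22 fell, against 1.1% each way over all genes tested. Since the lists were chosen with earlier results of these data known, these counts are a description only.

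There were 23 pairs of adjacent tested genes called in the same direction, 8 higher and 15 lower, and 2 of the pairs overlap. They hold 44 of the 447 called genes and include LSU3 with LSU1, the NSP and lectin genes above, CYP705A5 with CYP708A2, the methionine sulfoxide reductases MSRB4 with MSRB5, and the transporters ABCB11 with ABCB12. ABCB11 had 63.6, 65.4 and 70.8 rpm in siz1-2, against 28.6, 30.0 and 45.4 rpm in WT (0.95, SE 0.16, adjusted p = 0.00223), and ABCB12 had 12.6, 15.2 and 13.8 rpm in siz1-2 and 3.77, 5.33 and 7.04 rpm in WT (1.25, SE 0.23, adjusted p = 0.00484). For tandem copies among them the assignment of shared reads is unstated, and the same reads may count for both genes, as above.

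The genotype difference at SIM 4 d was then set beside that at the other stages, which share no library with it. At SIM 6 d 613 genes were called (3.01%; 1.42% higher and 1.59% lower), of which 254 were called in the same direction at SIM 4 d, 56.8% of the SIM 4 d genes and 41.4% of the SIM 6 d genes, and none was called in the opposite direction. At CIM 4 d 448 genes were called (2.2%; 1.3% higher and 0.904% lower), with 113 in common in direction (25.3% of the SIM 4 d genes and 25.2% of the CIM 4 d genes) and 3 opposite. At 0 d 2233 genes were called (11%; 4.37% higher and 6.6% lower), with 114 in common (25.5% of the SIM 4 d genes and 5.11% of the 0 d genes) and 10 opposite. The balance at 0 d turned with the scaling, with 889 higher and 1344 lower in rpm as deposited and 1130 higher and 990 lower under median-of-ratios scaling. The sign of the difference was the same for 438, 383 and 335 of the 447 SIM 4 d genes at SIM 6 d, CIM 4 d and 0 d. Of the 447 genes 47 were called in the same direction at all 3 other stages and 140 at none.

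Tested directly, the genotype difference at SIM 4 d was more positive than that at CIM 4 d for 13 genes and more negative for 30 (0.211% of the genes tested). Of these 43 genes 13 were called at SIM 4 d. The counts go by sign, so a gene that fell further at SIM 4 d counts as more negative. Without WT replicate 3 at SIM 4 d the counts against CIM 4 d were 50 and 43. Against 0 d they were 455 and 358 (3.99%), with 116 called at SIM 4 d. The balance against 0 d turned with the scaling, at 258 and 506 under median-of-ratios and 292 and 420 under TMM scaling. It was 150 and 217 without WT replicate 1 at SIM 4 d, 189 and 243 without siz1-2 replicate 1 and 171 and 216 without siz1-2 replicate 2, and 285 and 258 without WT replicate 2 and 303 and 274 without siz1-2 replicate 3. Against SIM 6 d the counts were 0 and 2 in limma (0.00982%), with 626 genes at an unadjusted p below 0.05, and none of the 2 was called at SIM 4 d. In the sulfur list the called genes at SIM 6 d were 1 higher and 6 lower, and at CIM 4 d 1 higher and 4 lower. At 0 d 4 were higher and 5 lower, with LSU1 (1.33) and LSU3 (0.76) among the higher. SDI1 had log2 differences of −2.09 at SIM 4 d, −1.99 at SIM 6 d, −1.19 at CIM 4 d and −0.30 at 0 d. The lectin and nitrile specifier cluster had 6 genes called lower at SIM 4 d and 7 at SIM 6 d, with none past the threshold at CIM 4 d or 0 d. Of the 6, the difference between stages itself passed the test for JAL31 against 0 d (adjusted p = 0.0246), and for none against CIM 4 d (0.165 to 0.727). NSP1 had −1.45, −1.6, −0.80 and −0.49 at SIM 4 d, SIM 6 d, CIM 4 d and 0 d. LSH2 had 3.32 and 2.91 on SIM, against 0.93 at CIM 4 d and 0.51 at 0 d. The scatter of the called genes across stages shows their differences side by side.

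**Figure D5:**
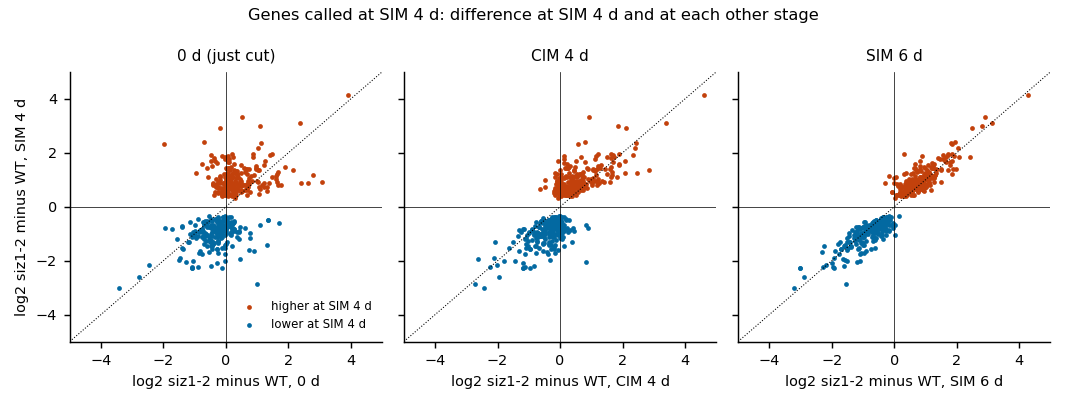
Log2 difference of siz1-2 minus WT at SIM 4 d (vertical axis) against the same at 0 d, CIM 4 d and SIM 6 d (horizontal axis of each panel) for the 447 genes called at SIM 4 d, orange where higher and blue where lower in siz1-2. The dotted line marks equal differences; the sign is the same for 438 of the 447 at SIM 6 d, 383 at CIM 4 d and 335 at 0 d.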

How the data were processed

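Poly(A) RNA of 24 libraries (8 groups of 3) was sequenced from stranded libraries, per the labels' protocols. Base calling used bcl2fastq and alignment Bowtie 1.2.1 against TAIR10, per the submitters' processing notes; how reads were counted, and whether strand was used, is not stated in the sources used here. The deposited values are a signal per isoform: reads divided by 1 library total and multiplied by 1000000, with a read counted for each isoform it matches. Whole reads were recovered from 100% of the values (tolerance 0.001 of a read).

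Each of 25960 genes was represented by the isoform of highest mean over 24 libraries. The 20361 genes with at least 1 rpm in 3 libraries were tested with limma 3.58.1 (R 4.3.3; trend and robust) on log2(rpm + 1) in 1 model of 8 group means with 16 residual degrees of freedom, so fold changes of low genes are understated. All adjusted p-values are Benjamini-Hochberg values from limma over all genes tested, also where a library was left out. A count model was planned for raw counts; since the files hold normalised values, limma took its place, and edgeR 4.0.16 and DESeq2 1.42.0 on the recovered reads were alternatives. The test was tried on simulated data first. Of 781 genes in 36 lists, 109 were not tested. The rule for naming genes takes the 15 most changed in each direction among called genes whose groups do not overlap. It also takes the 8 called genes of highest rpm in each direction and called members of lists and families. A set of key genes and the 8 called genes at each end of the difference from CIM 4 d complete it. Not every gene it gives is described, and those outside it are said to be chosen after their values were seen. Members and lists were chosen with earlier results of these data known, and 3 lists, the motif search and 5 alternatives were added after the values had been seen. Positions and promoters are those of RefSeq TAIR10.1, matched by gene identifier (25593 genes). Library number and depth limit precision; nothing here covers variation beyond these libraries.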

Additional observations from a re-analysis of the deposited data

Results flagged for a closer look

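The results below passed a test of the difference between stages itself, the log2 difference of siz1-2 minus WT at SIM 4 d minus the same at another stage (limma interaction, adjusted p below 0.05 over all genes tested). Against 0 d, 116 genes called at SIM 4 d passed, of which the 38 named by the rule are given; against CIM 4 d, all 13 that passed are given. The value is in log2 units, positive where the SIM 4 d difference is the more positive one.

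Against 0 d it was above 0 at 4.33 for CYP79F2, 2.4 for AT1G48660, 0.76 for CNA, 1.9 for AT1G65150, 2.22 for AT1G70880, 1.99 for BLH11 and 0.75 for HA1. It reached 1.77 for AT2G31220, 2.81 for LSH2, 0.87 for SULTR4;2, 0.95 for IAA31, 1.18 for AT3G18560, 0.89 for DWF4 and 2.03 for EP3. IAA31 entered the test only through its siz1-2 libraries at SIM 4 d, where it was high. Other positive values were 3.07 for ABCC10, 1.08 for AT5G02370, 1.2 for MT2B, 1.66 for TFL1, 1.08 for GDH2, 2.37 for TT7 and 0.71 for ARF4. Below 0 lay −1.93 for ICS2, −1.04 for WRKY6, −1.42 for HB-7, −0.92 for JAL31, −1.49 for IAA7, −1.75 for LSU3 and −2.77 for LSU1. Further down or near these were −2.18 for AT4G28940, −1.78 for PRR7, −1.37 for MES5, −2.01 for AT5G19110, −1.08 for LSU2, −1.41 for YUC6 and −1.4 for LSH1. The remaining negative values were −3.86 for BGLU24, −1.79 for SDI1 and −1.72 for COBL5.

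Against CIM 4 d the positive values were 1.42 for AT1G70880, 1.3 for AT2G39855, 2.39 for LSH2, 1.47 for AT3G18560, 1.75 for EP3, 1.27 for OPT3 and 1.24 for AAP4. Those below 0 were −1.02 for AT1G69480, −1.21 for AT1G71200, −1.51 for MIR408, −1.69 for AT3G51750, −0.98 for AT4G03420 and −2.87 for AT4G28790.

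Among the sulfur genes that were lower at SIM 4 d, LSU1 (1.33, limma adjusted p = 0.0128) and LSU3 (0.76, 0.00704) were called higher at 0 d, while LSU2 (0.27) and SDI1 (−0.3) were not called there.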

How the results depend on the processing

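Under 17 alternatives, 131 named genes gave 1844 values with the direction and side of the threshold unchanged, 358 that missed the threshold, 8 that newly passed it and 9 of the opposite sign, the last all in genes that were not called. Without 1 of the 6 libraries, 101 to 233 genes were called higher and 83 to 165 lower. DESeq2 called 421 lower, and it called 204 of the 223 higher and 220 of the 224 lower genes of the main test. Leaving out 4 libraries of other stages gave 559 higher and 441 lower. In that fit 635 genes had a more positive and 603 a more negative difference than at 0 d. Deviations from the group mean in same-numbered libraries had r of −0.128, 0.407 and 0.103 at SIM 4 d, against −0.449 to 0.255 between differently numbered ones. So few values cannot decide whether the numbers pair the samples, and the main test used no pairing. With replicate number as a block, the counts of higher and lower genes came to 101 and 83 at SIM 4 d, 117 and 116 at SIM 6 d, 132 and 78 at CIM 4 d, and 607 and 786 at 0 d. In that fit the SIM 4 d difference was more positive or more negative than that at 0 d in 121 and 178 genes. Against CIM 4 d these counts were 4 and 10. Scaling by median of ratios or TMM gave 258 and 292 genes whose SIM 4 d difference was more positive than that at 0 d. More negative differences numbered 506 and 420 under these scalings. Without 1 of the 6 libraries, 150 to 494 genes had a more positive and 216 to 361 a more negative difference than at 0 d. Against CIM 4 d these counts were 9 to 50 and 21 to 43. The signs that turned, given as the range over the left-out libraries, were those of CKX3 (−0.011 to 0.23), WIND1 (−0.184 to 0.044), WOX5 (−0.581 to 0.022), PR1 (0 to 0.303), AT3G54450 (−0.108 to 0.042) and AT3G21380 (−0.266 to 0.1). The cause was not tested. Fewer libraries were fitted in the left-out settings. Replicate spread limits the calls, and at low levels the read depth does too.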
